A study of Mus musculus with 12 samples.

Results

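The genes of the proteasome were examined in polyadenylated RNA of whole inguinal white adipose tissue (iWAT). All listed genes were taken whose symbol is Psm, one of the letters a to g and a number, together with *Nfe2l1* and *Pomp*. This gave 48 of the 14159 genes with deposited values. They comprised 31 constitutive subunits, 5 immunoproteasome genes (*Psmb8*, *Psmb9*, *Psmb10*, *Psme1* and *Psme2*), 11 assembly, activator and inhibitor genes, and *Nfe2l1*. The subunit genes Psmd2 and Psmb11 were not analysed here. Mice were C57BL/6 with floxed *Atf4* alleles on both chromosomes. Atf4AKO mice also carried *Adipoq*-Cre, which deletes *Atf4* in adipocytes and not in the other cells of the tissue, and their floxed littermates without Cre were Atf4WT. Each genotype was kept at room temperature (RT) or exposed to cold for 24 h, which gave 4 groups of 3 biological replicates and 12 libraries in all. The age and sex of the mice behind these libraries are not given in the sources used here. Because the RNA is from whole tissue, fewer cells of a type and less RNA per cell cannot be told apart.

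The 26S proteasome degrades proteins that carry ubiquitin chains. Its 20S core is a barrel of outer alpha rings, which gate the entrance, and inner beta rings, which hold the proteolytic sites. The 19S regulator caps the core, and its ATPases unfold the substrate while its other subunits bind and remove ubiquitin. Interferons induce the alternative catalytic subunits PSMB8, PSMB9 and PSMB10, which replace PSMB5, PSMB6 and PSMB7 in the immunoproteasome, and the activator subunits PSME1 and PSME2. Blood-derived cells carry much immunoproteasome. When proteasome activity is short, the transcription factor NFE2L1 is cleaved and activates the subunit genes together, and in thermogenic fat it is known to maintain proteasome activity during cold.

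The libraries held 25719476 to 29105147 reads on listed genes. *Atf4* had 4107 to 7644 normalized counts in the 6 Atf4WT libraries and 788 to 1639 in the 6 Atf4AKO libraries, without overlap. The mean log2 level of 5 thermogenic adipocyte markers was 8.78 to 9.84 in the RT libraries and 13.08 to 13.58 after cold exposure, and the white adipocyte markers were high in all 12 libraries. Some libraries differed in other cell types. The lymphocyte score, the mean log2 level of 30 B cell and T cell markers, was 7.15 to 9.62 in cold-exposed Atf4WT, 3.53 to 5.09 in cold-exposed Atf4AKO, 4.16 to 5.22 in Atf4AKO at RT, and 6.98 in Atf4WT RT replicate 2 against 3.95 and 4.20 in the other two Atf4WT RT libraries. The summed count of the 3 listed skeletal muscle markers was 62509 in Atf4WT RT replicate 2 and 22459 in cold-exposed Atf4WT replicate 0, and 42.5 to 2388 in the other 10 libraries. This pair is called the muscle-rich libraries below, and results that rest on them are also given without them. Of 5 fibroblast markers, 2 fell in cold in Atf4WT and 3 in Atf4AKO, with median log2 fold changes of −1.44 and −1.54.

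Promoter sequences are shown for constitutive subunits whose window holds the motif of NFE2L1, and for the inducible subunit genes *Psmb8* and *Psmb9*, so that the elements can be read beside the cold responses below. RefSeq windows from 250 bases before to 50 bases after the start (GRCm38.p6) matched 40 of the 48 members, with 47 windows. *Psma8*, *Psmb1*, *Psmb2*, *Psmb7*, *Psmc3*, *Psmd3*, *Psmd7* and *Psmg2* had no entry. Both strands were searched for the antioxidant response element TGACNNNGC, which NFE2L1 and NFE2L2 bind, and 4 of 24 constitutive genes with a window held it (*Psmb5*, *Psmb6*, *Psmc6* and *Psmd12*). Of all 32851 windows, 12.4% held this motif. The 250 bases before the start of these 4 genes follow, 5′ to 3′ on the strand of the gene, with the motif in capitals (*Psmb5* at chr14:54617996-54618245, minus strand; *Psmb6* at chr11:70525107-70525356, plus strand; *Psmc6* at chr14:45329574-45329823, plus strand; *Psmd12* at chr11:107479278-107479527, plus strand).
Psmb5: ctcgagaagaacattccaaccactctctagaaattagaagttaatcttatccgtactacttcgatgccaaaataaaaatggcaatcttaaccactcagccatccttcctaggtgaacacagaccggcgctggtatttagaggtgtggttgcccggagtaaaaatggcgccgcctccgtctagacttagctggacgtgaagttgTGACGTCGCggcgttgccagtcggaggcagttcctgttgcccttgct
Psmb6: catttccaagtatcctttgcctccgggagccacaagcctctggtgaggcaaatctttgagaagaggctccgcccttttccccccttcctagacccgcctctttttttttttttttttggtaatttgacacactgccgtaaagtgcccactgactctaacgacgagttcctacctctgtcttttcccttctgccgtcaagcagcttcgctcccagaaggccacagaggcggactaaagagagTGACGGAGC
Psmc6: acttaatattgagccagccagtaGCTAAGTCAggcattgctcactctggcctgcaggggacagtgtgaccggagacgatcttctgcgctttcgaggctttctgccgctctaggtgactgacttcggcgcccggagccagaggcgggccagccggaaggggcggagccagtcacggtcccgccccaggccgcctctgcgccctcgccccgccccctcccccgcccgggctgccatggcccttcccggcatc
Psmd12: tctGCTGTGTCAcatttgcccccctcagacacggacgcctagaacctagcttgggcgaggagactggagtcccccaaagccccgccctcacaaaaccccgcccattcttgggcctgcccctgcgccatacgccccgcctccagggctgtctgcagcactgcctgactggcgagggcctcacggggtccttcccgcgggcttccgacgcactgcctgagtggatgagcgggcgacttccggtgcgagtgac

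The motif began at position −47 from the start in *Psmb5*, −9 in *Psmb6*, −227 in *Psmc6* and −247 in *Psmd12*, on the reverse strand in the latter pair. The interferon motifs searched were the interferon-stimulated response element GAAANNGAA, held by 8.56% of all windows, and the gamma-interferon activated site TTCNNNGAA, held by 8.3%. The first was found in *Psmb3*, *Psmb4*, *Psmc2* and *Psmd4* among the constitutive genes and in *Psme1* among the 5 immunoproteasome genes. The second was found in none of the 24 constitutive genes and in *Psmb8*. The C/EBP-ATF response element TGATGNAA, which factors such as ATF4 bind, was found in *Psmd13* alone of these 29 genes, against 3.97% of all windows. No matches of different motifs overlapped in the members. A match is a description of the letters and not a measured binding site. The RefSeq windows of *Psmb8* (chr17:34197945-34198194, plus strand) and *Psmb9* (chr17:34187331-34187580, minus strand), neighbours on chromosome 17, follow. The gamma-interferon motif of *Psmb8* is in capitals, and the *Psmb9* window holds none of the motifs searched. Both windows lie inside the annotated gene spans given below, after the annotated starts. The bases before those annotated starts were not searched, so motifs there are not known from this search.
Psmb8: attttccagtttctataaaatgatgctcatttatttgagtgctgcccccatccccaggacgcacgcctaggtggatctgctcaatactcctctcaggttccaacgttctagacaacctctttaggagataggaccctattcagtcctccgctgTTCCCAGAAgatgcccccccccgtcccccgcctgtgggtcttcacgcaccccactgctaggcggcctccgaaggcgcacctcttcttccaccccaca
Psmb9: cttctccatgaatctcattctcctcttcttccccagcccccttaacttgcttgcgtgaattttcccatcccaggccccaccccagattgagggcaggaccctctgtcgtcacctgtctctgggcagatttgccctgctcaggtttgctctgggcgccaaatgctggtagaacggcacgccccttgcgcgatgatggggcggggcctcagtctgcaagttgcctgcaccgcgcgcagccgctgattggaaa

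In Atf4WT iWAT, cold exposure raised 20 of the 30 constitutive subunit genes that passed the expression filter, and lowered none of them. Values are log2 fold changes (log2FC) of log2(normalized count + 1) from limma, and genes were called where the p-value, adjusted by Benjamini-Hochberg across the 13404 tested genes, lay under 0.05. Of all tested genes, 17.0% were called higher and 14.9% lower. The median log2FC was 0.34 over the 30 subunits and 0.00 over all tested genes, and all 30 subunits had a log2FC above 0, against 50.2% of all tested genes. In Atf4AKO iWAT the response was also 20 of 30 genes higher, 0 lower and a median of 0.39, against 14.8% higher, 11.0% lower and a median of −0.03 over all tested genes. At a fold change over 1.5 with an unadjusted p-value under 0.05, 4 subunits passed in Atf4WT (10.9% of all tested genes passed as higher) and 6 in Atf4AKO (8.3%). The 31st constitutive gene, *Psma8*, encodes a testis-specific alpha subunit and had a mean of 6.05 normalized counts, under the filter at a mean of 10. The thermogenic adipocyte markers, 5 of 5 called higher in each genotype with medians of 2.16 and 2.57, moved with these genes, and their part in the result was not tested.

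The Atf4WT count varied with the libraries used. Without muscle-rich Atf4WT RT replicate 2, 17 of 30 subunits were called (14.2% of all tested genes were then called higher). Without muscle-rich cold-exposed replicate 0, 15 were called (15.3%). Without cold-exposed replicate 1, which was not muscle-rich, 17 were called (11.5%). Without both muscle-rich libraries, in an alternative chosen after seeing the data, 10 of 30 were called (12.6% of all tested genes were then called higher). In that fit 27 of 30 had a log2FC above 0 and the median was 0.24. The 10 genes were *Psma1*, *Psma3*, *Psmb3*, *Psmb5*, *Psmb7*, *Psmc4*, *Psmc6*, *Psmd4*, *Psmd11* and *Psmd12*. The 10 lost calls, *Psma2*, *Psma5*, *Psma6*, *Psmb2*, *Psmb4*, *Psmb6*, *Psmd3*, *Psmd6*, *Psmd7* and *Psmd8*, had adjusted p-values of 0.0505 to 0.274. Leaving out both took 1 library from each Atf4WT group, and Atf4WT RT replicate 2 also had the highest lymphocyte score of its group. The parts of muscle RNA, lymphocytes and library number in the lost calls cannot be told apart. In Atf4AKO, where the muscle-rich libraries do not enter the group means, 19 of 30 were called in the same fit. The median there was 0.39, and 14.3% of all tested genes were called higher. When any 1 library was left out, 15 to 21 subunits were called in Atf4WT and 17 to 21 in Atf4AKO. The share of all tested genes called higher in these fits was 11.5% to 17.8% in Atf4WT and 9.77% to 15.3% in Atf4AKO.

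**Figure D1:**
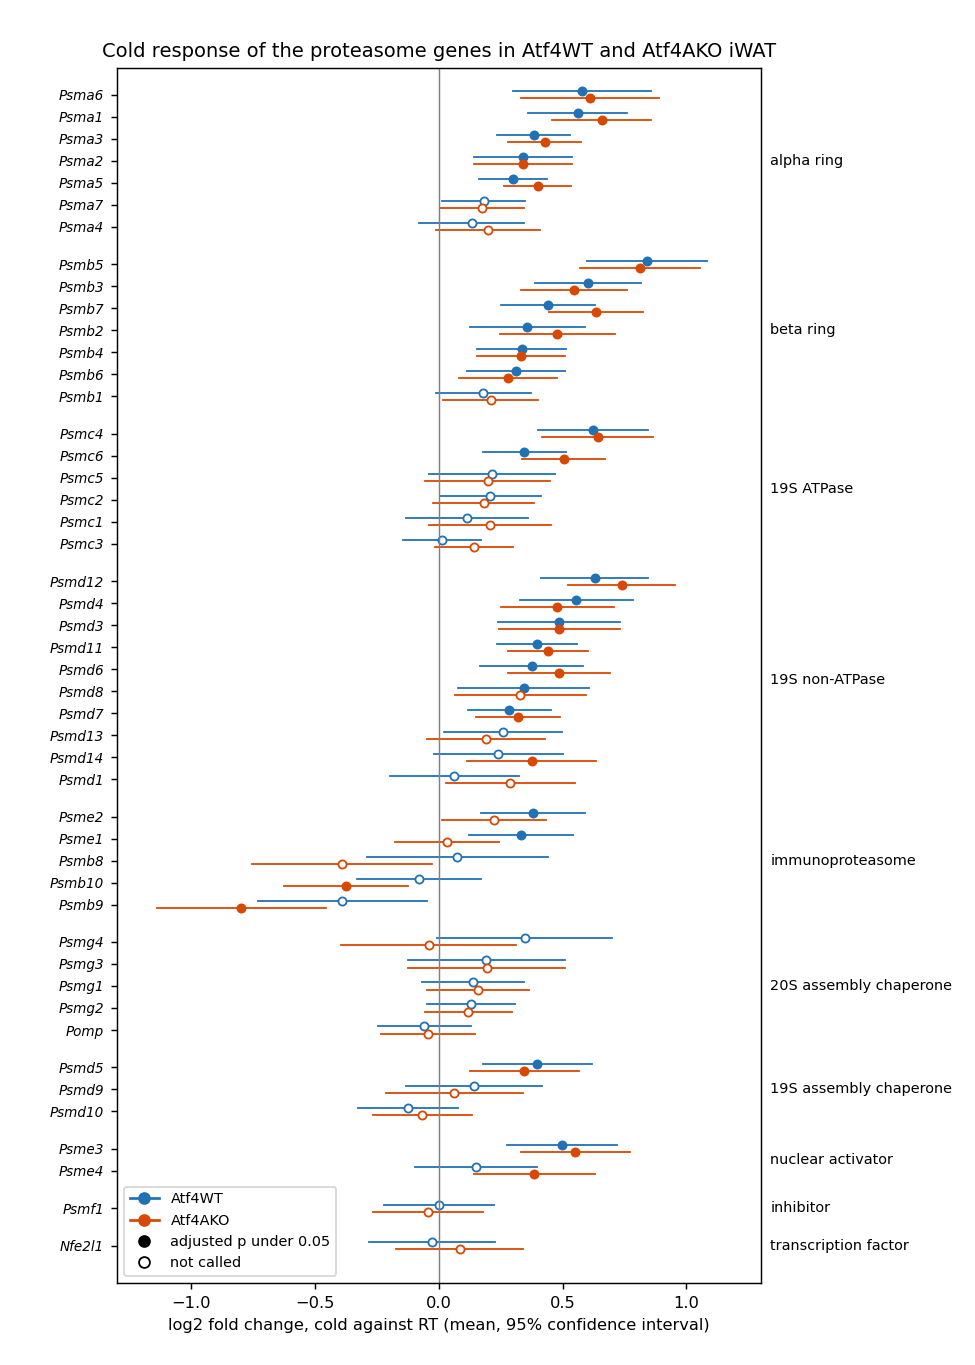
Log2 fold change of cold exposure against RT (horizontal axis) for the 47 tested proteasome genes, grouped by role, in Atf4WT (blue) and Atf4AKO (orange) iWAT. Points are means of 3 against 3 libraries with 95% confidence intervals, and filled points have an adjusted p-value under 0.05. The constitutive subunits lie right of 0 in both genotypes, up to 0.84 for Psmb5, while Psmb8, Psmb9 and Psmb10 lie near or left of 0.

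Of the 7 tested alpha ring genes, 5 rose in each genotype (*Psma1*, *Psma2*, *Psma3*, *Psma5* and *Psma6*), with a median log2FC of 0.34 in Atf4WT and 0.40 in Atf4AKO. *Psma6* had normalized counts of 3943, 4962 and 3715 in the 3 Atf4WT libraries at RT and 6332, 6523 and 5873 after cold exposure. In Atf4AKO, *Psma6* had 4704, 5358 and 3927 at RT and 6698, 7107 and 7405 after cold exposure. The cold-exposed libraries lay above all RT libraries of their genotype, with a log2FC of 0.58 ± 0.13 (SE, adjusted p = 0.00614) in Atf4WT and 0.61 ± 0.13 (SE, adjusted p = 0.00565) in Atf4AKO. *Psma2*, *Psma3* and *Psma5* had log2FC of 0.34, 0.38 and 0.30 in Atf4WT and 0.34, 0.43 and 0.40 in Atf4AKO. The *Psma2* call was lost without cold-exposed Atf4WT replicate 0 (adjusted p = 0.0523) and in a fit of only the groups compared (0.0553) in Atf4WT, and without cold-exposed replicate 1 in Atf4AKO (0.0572). *Psma1* rose by 0.56 in Atf4WT and 0.66 in Atf4AKO on the log2 scale. *Psma4* had the smallest response of the ring in Atf4WT. *Psma4* had normalized counts of 4652, 4771 and 4118 in the 3 Atf4WT libraries at RT and 5442, 5011 and 4420.5 after cold exposure. In Atf4AKO, *Psma4* had 4603, 4941 and 4496 at RT and 5372, 5812 and 4963 after cold exposure. Its RT and cold-exposed libraries overlapped in Atf4WT, and its log2FC was 0.13 ± 0.10 (SE, adjusted p = 0.313) in Atf4WT and 0.20 ± 0.10 (SE, adjusted p = 0.148) in Atf4AKO. *Psma7*, at 0.18 and 0.17, was not called in either genotype.

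Of the 7 constitutive beta ring genes, 6 rose in each genotype. *Psmb5* encodes the subunit with chymotrypsin-like activity, the main target of clinical proteasome inhibitors, and had the largest cold response of all members. *Psmb5* had normalized counts of 3907, 3975 and 3104 in the 3 Atf4WT libraries at RT and 6976, 6866 and 5810.5 after cold exposure. In Atf4AKO, *Psmb5* had 4377, 4411 and 3779 at RT and 7263, 7525 and 7236 after cold exposure. All 6 cold-exposed libraries lay above all 6 RT libraries. The log2FC was 0.84 ± 0.11 (SE, adjusted p = 0.00043) in Atf4WT and 0.81 ± 0.11 (SE, adjusted p = 0.000602) in Atf4AKO. Its promoter, printed above, holds 1 antioxidant response motif.

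*Psmb7* encodes the trypsin-like subunit. *Psmb7* had normalized counts of 5353, 5815 and 4878 in the 3 Atf4WT libraries at RT and 7512, 7378 and 6852 after cold exposure. In Atf4AKO, *Psmb7* had 5685, 5624 and 5238 at RT and 7937, 8516 and 9268 after cold exposure. Its log2FC was 0.44 ± 0.09 (SE, adjusted p = 0.00361) in Atf4WT and 0.63 ± 0.09 (SE, adjusted p = 0.000617) in Atf4AKO, again without overlap between RT and cold. *Psmb6* encodes the caspase-like subunit and had a smaller log2FC than either. *Psmb6* had normalized counts of 3553, 3910.1 and 3519.6 in the 3 Atf4WT libraries at RT and 4863, 4821 and 3984 after cold exposure. In Atf4AKO, *Psmb6* had 4260.1, 4259 and 3753 at RT and 4888, 5071 and 4926 after cold exposure. The log2FC was 0.31 ± 0.09 (SE, adjusted p = 0.023) in Atf4WT and 0.28 ± 0.09 (SE, adjusted p = 0.0411) in Atf4AKO. The Atf4AKO call of *Psmb6* was lost in 11 of 24 alternatives, among them without any 1 of the 6 Atf4AKO libraries, with adjusted p-values up to 0.127. The Atf4WT call was lost in 6, without RT replicate 0 or 2 or cold-exposed replicate 0 or 1, without both muscle-rich libraries and in a fit of only the groups compared, with adjusted p-values up to 0.162.

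The other beta subunits have no proteolytic site. *Psmb3* rose by 0.60 in Atf4WT and 0.55 in Atf4AKO on the log2 scale, *Psmb2* by 0.36 and 0.48, and *Psmb4* by 0.33 and 0.33. The Atf4WT call of *Psmb2* was lost in 5 of 24 alternatives, without Atf4WT RT replicate 2 (adjusted p = 0.0864), without cold-exposed Atf4WT replicate 0 (0.0784) or 1 (0.0764), without both muscle-rich libraries (0.201) and in a fit of only the groups compared (0.0558). *Psmb1* had the smallest response of the ring. *Psmb1* had normalized counts of 4249, 4308 and 3629.9 in the 3 Atf4WT libraries at RT and 4928, 4705 and 4170.0 after cold exposure. In Atf4AKO, *Psmb1* had 4223, 4507 and 4064 at RT and 4899, 4931 and 4947 after cold exposure. The log2FC was 0.18 ± 0.09 (SE, adjusted p = 0.136) in Atf4WT, where the groups overlapped, and 0.21 ± 0.09 (SE, adjusted p = 0.0991) in Atf4AKO, where they did not.

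Of the 6 ATPase genes of the 19S base, 2 rose in each genotype, *Psmc4* and *Psmc6*, with medians over the 6 of 0.21 in Atf4WT and 0.20 in Atf4AKO. *Psmc4* had normalized counts of 2217, 2451 and 2001 in the 3 Atf4WT libraries at RT and 3586, 3517 and 3157 after cold exposure. In Atf4AKO, *Psmc4* had 2508, 2626 and 2085 at RT and 3849.9, 3704 and 3659.7 after cold exposure. The groups did not overlap, with a log2FC of 0.62 ± 0.10 (SE, adjusted p = 0.00132) in Atf4WT and 0.64 ± 0.10 (SE, adjusted p = 0.00142) in Atf4AKO. *Psmc6* had a log2FC of 0.35 ± 0.08 (SE, adjusted p = 0.00638) in Atf4WT and 0.51 ± 0.08 (SE, adjusted p = 0.00108) in Atf4AKO. Its Atf4WT call was lost in 1 of 24 alternatives, with the lymphocyte score as a covariate (adjusted p = 0.0777). *Psmc3* differed least of all 30 subunits in Atf4WT. *Psmc3* had normalized counts of 5146, 5157 and 4685 in the 3 Atf4WT libraries at RT and 5176, 4951 and 4985 after cold exposure. In Atf4AKO, *Psmc3* had 4989.8, 5158 and 4566 at RT and 5642, 5432 and 5171 after cold exposure. Its log2FC was 0.01 (95% CI −0.15 to 0.17) in Atf4WT and 0.14 (95% CI −0.01 to 0.30) in Atf4AKO, so a response as large as that of *Psmc4* lies outside both intervals. *Psmc1*, *Psmc2* and *Psmc5* had log2FC of 0.11 to 0.21 in either genotype and were not called.

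Of the 10 non-ATPase genes of the 19S regulator, 7 were called in each genotype, 6 of them in both. The 6 were *Psmd3*, *Psmd6*, *Psmd7*, *Psmd11* and *Psmd12* of the lid, and *Psmd4*, a ubiquitin receptor. *Psmd12* had normalized counts of 2200.4, 2511 and 1976 in the 3 Atf4WT libraries at RT and 3414, 3248 and 3658 after cold exposure. In Atf4AKO, *Psmd12* had 2429, 2595 and 2143 at RT and 3954, 4071 and 3899 after cold exposure. All cold-exposed libraries lay above all RT libraries, with a log2FC of 0.63 ± 0.10 (SE, adjusted p = 0.00103) in Atf4WT and 0.74 ± 0.10 (SE, adjusted p = 0.000527) in Atf4AKO. *Psmd4* rose by 0.56 in Atf4WT and 0.48 in Atf4AKO on the log2 scale. *Psmd3*, *Psmd6*, *Psmd7* and *Psmd11* had log2FC of 0.48, 0.38, 0.29 and 0.40 in Atf4WT and 0.49, 0.49, 0.32 and 0.44 in Atf4AKO. The *Psmd7* call was lost in Atf4WT without cold-exposed replicate 0 (adjusted p = 0.052) and with the lymphocyte score as a covariate (0.0625), and in Atf4AKO in a fit of only the groups compared (0.0563). *Psmd1*, a large scaffold subunit of the base, had the smallest Atf4WT response of this list. *Psmd1* had normalized counts of 4478, 4413 and 3607 in the 3 Atf4WT libraries at RT and 4235, 4199 and 4566 after cold exposure. In Atf4AKO, *Psmd1* had 4569, 4426 and 3585 at RT and 4947, 4665 and 5723 after cold exposure. The Atf4WT groups overlapped, with a log2FC of 0.06 ± 0.12 (SE, adjusted p = 0.716) in Atf4WT and 0.29 ± 0.12 (SE, adjusted p = 0.0954) in Atf4AKO.

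*Psmd8* was called in Atf4WT (log2FC 0.34, adjusted p = 0.0499) and not in Atf4AKO (0.33, adjusted p = 0.066). *Psmd14*, the deubiquitinase of the lid, was called in Atf4AKO (0.38, adjusted p = 0.0382) and not in Atf4WT (0.24, adjusted p = 0.144). The *Psmd8* call was lost in 16 of 24 alternatives, with an adjusted p-value of 0.274 without both muscle-rich libraries. That of *Psmd14* was lost in 8 of 24, with the largest adjusted p-value, 0.122, without Atf4AKO RT replicate 2. The differences between the genotypes were −0.01 (95% CI −0.39 to 0.36) and 0.14 (95% CI −0.23 to 0.50). *Psmd13* had log2FC of 0.26 and 0.19 and was called in neither genotype. *Psma4*, *Psmb7*, *Psmc3*, *Psmd1*, *Psmd13*, *Psme1* and *Psmb9* share 14 to 405 exonic bases with a listed gene on the opposite strand. Since the strand setting of the counting is not given in the sources used here, reads in these stretches may belong to either gene.

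The cold responses of the subunits ran in a similar order in both genotypes. Across the 30 constitutive subunits, the log2FC of Atf4WT and Atf4AKO had a Pearson's r of 0.91, and across all 13404 tested genes 0.59. The 2 comparisons share no library, but genes of 1 library are not independent replicates, and the values are given as a description. Of the 30 subunits, 19 were called in both genotypes, 1 in Atf4WT alone, 1 in Atf4AKO alone and 9 in neither.

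Of the 11 assembly, activator and inhibitor genes, 2 were called higher in Atf4WT and 3 in Atf4AKO, none lower, with medians of 0.14 and 0.12. Of all tested genes, 17.0% were called higher in Atf4WT, close to the share in this list, and 14.8% in Atf4AKO. *Pomp* encodes the maturation factor that completes the 20S core. *Pomp* had normalized counts of 3275, 3449 and 2985 in the 3 Atf4WT libraries at RT and 3512, 2966 and 2871 after cold exposure. In Atf4AKO, *Pomp* had 3499.8, 3638 and 3443 at RT and 3462, 3507 and 3302 after cold exposure. RT and cold overlapped in both genotypes, and the log2FC was −0.06 (95% CI −0.25 to 0.13) in Atf4WT and −0.04 (95% CI −0.23 to 0.15) in Atf4AKO. The median responses of the subunits, 0.34 and 0.39, lie outside these intervals.

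The chaperones that pair the first alpha subunits, *Psmg1* to *Psmg4*, were not called in either genotype. *Psmg4* had the largest Atf4WT value. *Psmg4* had normalized counts of 132, 101 and 94.6 in the 3 Atf4WT libraries at RT and 141, 146 and 128 after cold exposure. In Atf4AKO, *Psmg4* had 141, 130.4 and 144 at RT and 126, 151 and 128 after cold exposure. The log2FC was 0.35 ± 0.16 (SE, adjusted p = 0.12) in Atf4WT and −0.04 ± 0.16 (SE, adjusted p = 0.877) in Atf4AKO. *Psmg1*, *Psmg2* and *Psmg3* had log2FC of 0.12 to 0.19.

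Of the 3 chaperones of the 19S base, *Psmd5* rose in both genotypes. *Psmd5* had normalized counts of 1132, 1055 and 935 in the 3 Atf4WT libraries at RT and 1361, 1326 and 1418 after cold exposure. In Atf4AKO, *Psmd5* had 1147, 1281 and 1082 at RT and 1348, 1479.5 and 1639.6 after cold exposure. The groups did not overlap, with a log2FC of 0.40 ± 0.10 (SE, adjusted p = 0.0121) in Atf4WT and 0.35 ± 0.10 (SE, adjusted p = 0.0269) in Atf4AKO. The Atf4WT call was lost in 1 of 24 alternatives, with an adjusted p-value of 0.0787. The Atf4AKO call was lost without Atf4AKO RT replicate 0 or 2, without cold-exposed Atf4AKO replicate 1 or 2, and in a fit of only the groups compared, with adjusted p-values of 0.0645 to 0.0933. *Psmd10* (gankyrin) had the lowest log2FC of the list. *Psmd10* had normalized counts of 624, 692 and 588 in the 3 Atf4WT libraries at RT and 564, 581 and 599 after cold exposure. In Atf4AKO, *Psmd10* had 695, 695 and 634 at RT and 618, 698 and 619 after cold exposure. Its log2FC was −0.12 ± 0.09 (SE, adjusted p = 0.326) in Atf4WT and −0.07 ± 0.09 (SE, adjusted p = 0.627) in Atf4AKO. *Psmd9* had 0.14 and 0.06.

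*Psme3* encodes the nuclear activator that opens the core without ubiquitin. *Psme3* had normalized counts of 2362, 2561 and 2131 in the 3 Atf4WT libraries at RT and 3238, 3268 and 3437 after cold exposure. In Atf4AKO, *Psme3* had 2536, 2749 and 2163 at RT and 3328, 3755 and 3807 after cold exposure. All cold-exposed libraries lay above all RT libraries. The log2FC was 0.50 ± 0.10 (SE, adjusted p = 0.00415) in Atf4WT and 0.55 ± 0.10 (SE, adjusted p = 0.00284) in Atf4AKO. *Psme4*, another nuclear activator gene, gave overlapping Atf4WT groups. *Psme4* had normalized counts of 2709, 2573 and 2233 in the 3 Atf4WT libraries at RT and 3071, 2511 and 2760.2 after cold exposure. In Atf4AKO, *Psme4* had 2507, 2695 and 2136 at RT and 3108, 3012 and 3446 after cold exposure. The log2FC was 0.15 ± 0.11 (SE, adjusted p = 0.328) in Atf4WT and 0.39 ± 0.11 (SE, adjusted p = 0.0268) in Atf4AKO. The Atf4AKO call was lost without Atf4AKO RT replicate 0 or 2 or cold-exposed Atf4AKO replicate 2, with adjusted p-values of 0.0593 to 0.0888. *Psmf1*, an inhibitor of the core, is the only member of its role. *Psmf1* had normalized counts of 922, 951 and 810.4 in the 3 Atf4WT libraries at RT and 946, 933 and 809 after cold exposure. In Atf4AKO, *Psmf1* had 1006, 1052 and 859 at RT and 919, 956 and 943 after cold exposure. Its log2FC was 0.00 (95% CI −0.22 to 0.23) in Atf4WT and −0.04 (95% CI −0.27 to 0.18) in Atf4AKO.

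*Nfe2l1*, the gene of the factor that activates the subunit genes, was not called at the mRNA level. *Nfe2l1* had normalized counts of 14729, 16674 and 13961 in the 3 Atf4WT libraries at RT and 15140.5, 15379 and 13912 after cold exposure. In Atf4AKO, *Nfe2l1* had 14324, 16752 and 13046 at RT and 13966, 17150.1 and 15582 after cold exposure. All 4 groups overlapped. The log2FC was −0.03 (95% CI −0.28 to 0.23, adjusted p = 0.882) in Atf4WT and 0.08 (95% CI −0.17 to 0.34, adjusted p = 0.623) in Atf4AKO. With the lymphocyte score as a covariate the Atf4WT value was 0.26 (adjusted p = 0.316). Cleavage and nuclear entry of the protein are not measured by RNA-seq.

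**Figure D2:**
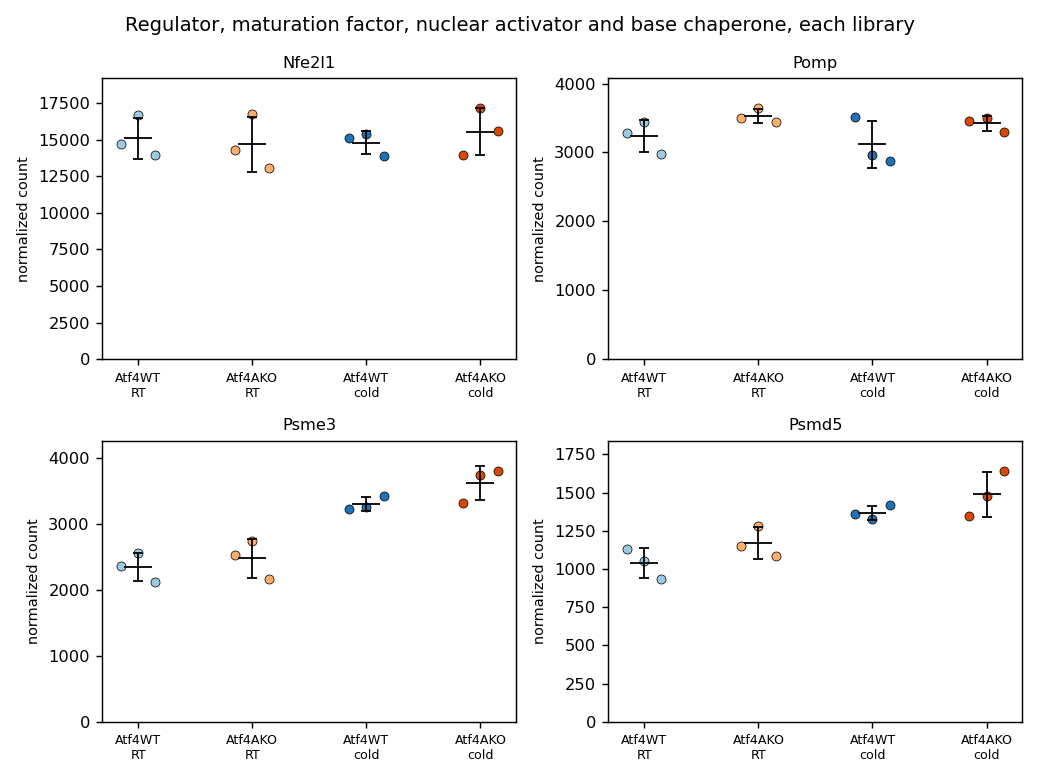
Normalized counts of Nfe2l1, Pomp, Psme3 and Psmd5 (vertical axes, from 0) in each of the 12 libraries, by group. Points are libraries, and bars are the mean ± SD of 3. Nfe2l1 and Pomp overlap between RT and cold, whereas Psme3 and Psmd5 are higher in all cold-exposed libraries than in the RT libraries of the same genotype.

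Of the immunoproteasome genes, the activator pair had a log2FC above 0 in both genotypes, and the 3 catalytic subunits had values from −0.80 to 0.08. In Atf4WT, 2 of 5 were called higher in cold (*Psme1* and *Psme2*) and none lower, with a median log2FC of 0.08. In Atf4AKO, 2 of 5 were called lower (*Psmb9* and *Psmb10*) and none higher, with a median of −0.37. Of all tested genes, 17.0% were called higher in Atf4WT and 11.0% lower in Atf4AKO. At an unadjusted p-value under 0.05, *Psmb9* was also lower in Atf4WT, and *Psmb8* was lower and *Psme2* higher in Atf4AKO. Of all tested genes, 43.4% in Atf4WT and 39.1% in Atf4AKO lay under that threshold, in either direction.

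*Psmb9* lies at chr17:34181987-34187764 on the minus strand, and *Psmb8* at chr17:34197721-34201454 on the plus strand, in the major histocompatibility complex (mm10). *Psmb9* had normalized counts of 1830.2, 1293 and 1515 in the 3 Atf4WT libraries at RT and 993, 1164 and 1379 after cold exposure. In Atf4AKO, *Psmb9* had 1595, 2064 and 1955 at RT and 1125, 1138 and 957 after cold exposure. The Atf4AKO libraries did not overlap between RT and cold, and those of Atf4WT did. The log2FC was −0.80 ± 0.16 (SE, adjusted p = 0.00415) in Atf4AKO, a call kept in all 24 alternatives, and −0.39 ± 0.16 (SE, adjusted p = 0.0775) in Atf4WT. In Atf4WT the adjusted p-value fell to 0.0464 without RT replicate 1 and to 0.0436 without cold-exposed replicate 2.

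*Psmb10* had normalized counts of 2071, 1625 and 1686 in the 3 Atf4WT libraries at RT and 1705, 1758 and 1609 after cold exposure. In Atf4AKO, *Psmb10* had 1918, 2349 and 2167 at RT and 1656, 1831 and 1482 after cold exposure. Its log2FC was −0.37 ± 0.11 (SE, adjusted p = 0.0338) in Atf4AKO, without overlap, and −0.08 ± 0.11 (SE, adjusted p = 0.632) in Atf4WT, with overlap. The Atf4AKO call was lost without Atf4AKO RT replicate 1 (adjusted p = 0.111) or 2 (0.0769), without cold-exposed Atf4AKO replicate 0 (0.0662) or 2 (0.113), without both muscle-rich libraries (0.0518), and in a fit of only the groups compared (0.0599).

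*Psmb8* had normalized counts of 3356, 2258 and 2627 in the 3 Atf4WT libraries at RT and 2433, 2881 and 3322 after cold exposure. In Atf4AKO, *Psmb8* had 2898, 3894 and 3965 at RT and 2891, 2698 and 2542 after cold exposure. Its log2FC was 0.08 ± 0.17 (SE, adjusted p = 0.757) in Atf4WT and −0.39 ± 0.17 (SE, adjusted p = 0.105) in Atf4AKO. The Atf4AKO libraries did not overlap, by a margin of a few counts, and the difference did not pass the adjusted threshold. The Atf4WT libraries spread over the same range at RT and in cold.

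**Figure D3:**
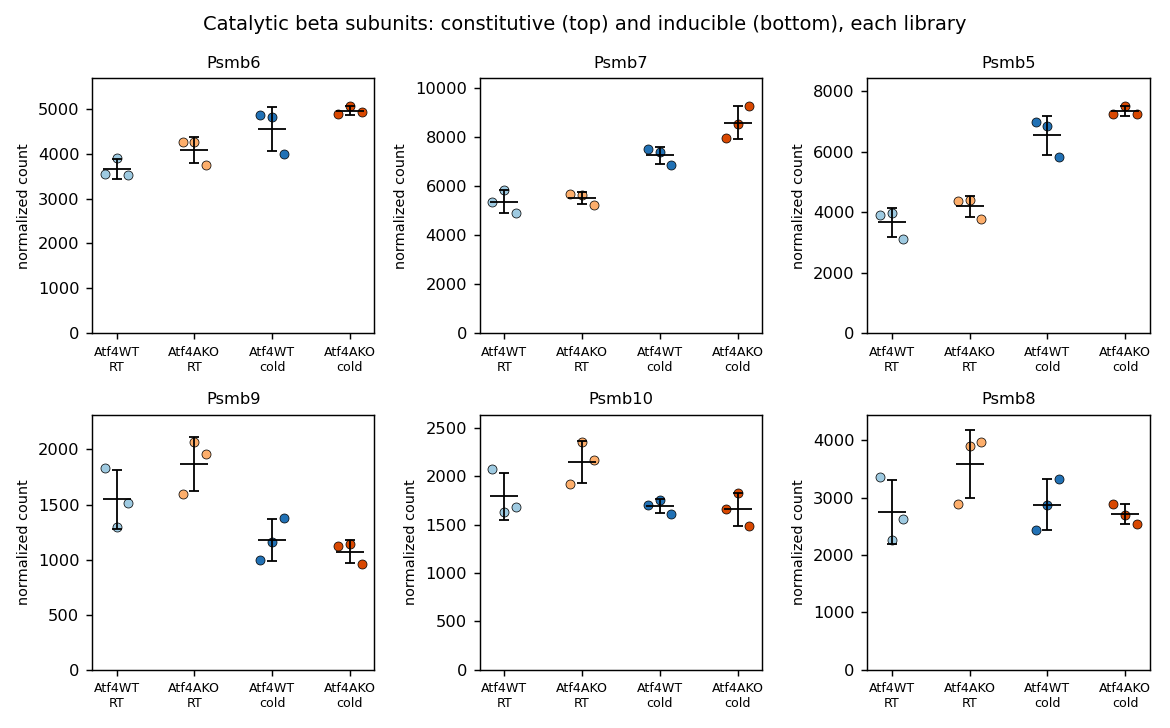
Normalized counts (vertical axes, from 0) of the constitutive catalytic subunits Psmb6, Psmb7 and Psmb5 (top) and of the inducible subunits Psmb9, Psmb10 and Psmb8 that replace them (bottom), in each library by group. Points are libraries, and bars are the mean ± SD of 3. In the top row all cold-exposed libraries lie above the RT libraries of their genotype, and in the bottom row no gene was called higher in cold.

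*Psme1* and *Psme2* encode the alpha and beta subunits of the interferon-inducible activator and rose in Atf4WT. *Psme1* had normalized counts of 3903, 3598 and 3648 in the 3 Atf4WT libraries at RT and 4441, 4996 and 4602 after cold exposure. In Atf4AKO, *Psme1* had 3931, 4792 and 4266 at RT and 4646, 4718 and 3934 after cold exposure. The log2FC was 0.33 ± 0.10 (SE, adjusted p = 0.0222) in Atf4WT, without overlap, and 0.03 ± 0.10 (SE, adjusted p = 0.822) in Atf4AKO, with overlap. The Atf4WT call was lost without Atf4WT RT replicate 1 (adjusted p = 0.0718) or 2 (0.0565), without cold-exposed Atf4WT replicate 1 (0.0825), without both muscle-rich libraries (0.0668), and with the lymphocyte score as a covariate (0.182).

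*Psme2* had normalized counts of 5660.4, 5714 and 5302 in the 3 Atf4WT libraries at RT and 7285, 7368 and 7046 after cold exposure. In Atf4AKO, *Psme2* had 5799, 7207 and 6047 at RT and 6977, 8231 and 7008 after cold exposure. The log2FC was 0.38 ± 0.10 (SE, adjusted p = 0.0118) in Atf4WT, without overlap, and 0.22 ± 0.10 (SE, adjusted p = 0.106) in Atf4AKO, with overlap. Without both muscle-rich libraries the Atf4WT adjusted p-value was 0.0772. *Psme2b*, a near-identical retrogene copy, was listed with a mean of 194 normalized counts in Atf4WT at RT and 259 after cold exposure, and reads may be split between the copies, so the level of *Psme2* is uncertain to that extent.

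The ratio of each inducible subunit to the constitutive subunit it replaces was formed in each library, which cancels gene length in comparisons between libraries. The log2 ratio of *Psmb8* to *Psmb5* was −0.22, −0.82 and −0.24 in Atf4WT at RT and −1.52, −1.25 and −0.81 after cold exposure, and in Atf4AKO −0.59, −0.18 and 0.07 at RT and −1.33, −1.48 and −1.51 after cold exposure. The Atf4AKO groups did not overlap, and the Atf4WT groups overlapped by 1 pair of nearly equal libraries. The log2 ratio of *Psmb9* to *Psmb6* was −0.96, −1.60 and −1.22 in Atf4WT at RT and −2.29, −2.05 and −1.53 after cold exposure. In Atf4AKO it was −1.42, −1.04 and −0.94 at RT and −2.12, −2.16 and −2.36 after cold exposure. The log2 ratio of *Psmb10* to *Psmb7* was −1.37, −1.84 and −1.53 in Atf4WT at RT and −2.14, −2.07 and −2.09 after cold exposure, without overlap. In Atf4AKO it was −1.57, −1.26 and −1.27 at RT and −2.26, −2.22 and −2.65 after cold exposure, without overlap. All 3 mean ratios were lower in cold in both genotypes. No test was made on these ratios.

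**Figure D4:**
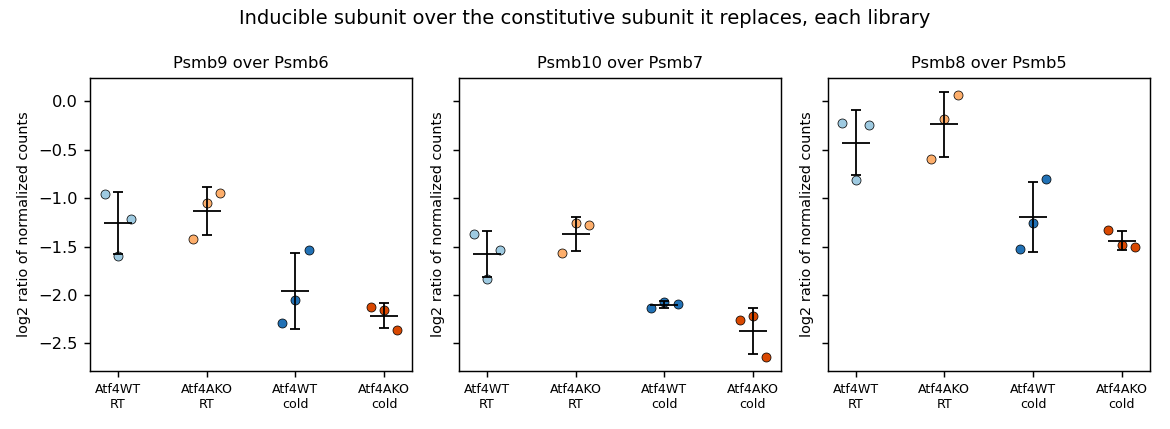
Log2 ratio of the normalized counts of each inducible catalytic subunit to its constitutive counterpart (vertical axis) in each library, by group. Points are libraries, and bars are the mean ± SD of 3. The Atf4AKO groups separate fully between RT and cold for all 3 pairs, and the Atf4WT groups separate fully for Psmb10 over Psmb7.

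Per kilobase of transcript, *Psmb8* stood at 41.4% of *Psmb5* in Atf4WT at RT, 24.3% after cold exposure, 47.3% in Atf4AKO at RT and 20.4% after cold exposure. *Psmb9* stood at 24.9%, 15.3%, 27.0% and 12.8% of *Psmb6* in the same order. *Psmb10* stood at 29.7%, 20.6%, 34.4% and 17.1% of *Psmb7*. Constitutive catalytic transcripts were thus the more abundant in each of the 4 groups. Over all 12 libraries, the median of the 30 constitutive subunits was 3149 normalized counts per kilobase, with a range from 797 for *Psmd11* to 7046 for *Psma6*. The 5 immunoproteasome genes ranged from 1048 for *Psmb9* to 8348 for *Psme2*, the highest value of any member. *Nfe2l1* had 3234, and the 11 assembly, activator and inhibitor genes had a median of 444.

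Blood-derived cells, which carry immunoproteasome, were measured through their markers. Among the 30 listed lymphocyte markers (13 of B cells and 17 of T cells), 28 were called higher in cold in Atf4WT and 0 in Atf4AKO. The smallest deposited value was 0.92, so the lack of values of 0 among the markers says nothing about lymphocyte presence. The summed count of the 30 markers was 890 to 6373 in Atf4WT at RT and 6772 to 29178 in cold-exposed Atf4WT. In Atf4AKO it was 951 to 2016 at RT and 508 to 1627 after cold exposure. The 11 listed macrophage markers had median log2FC of −0.65 in Atf4WT and −0.996 in Atf4AKO, with none called. Their summed count was 28799 to 38036 in Atf4WT at RT and 33877, 15017 and 37795 in cold-exposed Atf4WT. In Atf4AKO the summed macrophage count was 26973 to 49939 at RT and 32029, 6011 and 32975 after cold exposure. In each genotype only cold-exposed replicate 1 lay under the RT range, and the other cold-exposed libraries lay within it. Of the 6 dendritic cell markers, 1 was called higher in Atf4WT and none in Atf4AKO, with medians of 0.59 and −0.74. Their summed count was 696 to 943 in Atf4WT at RT, 683 to 1253 in cold-exposed Atf4WT, 812 to 1185 in Atf4AKO at RT and 482 to 746 in cold-exposed Atf4AKO. The part of these cells in the levels of *Psmb8*, *Psmb9*, *Psmb10*, *Psme1* and *Psme2* was not tested.

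With the lymphocyte score as a covariate, the median cold response of the constitutive subunits was 0.53 in Atf4WT and 0.37 in Atf4AKO. In that fit 19 of 30 were called in each genotype. Of all 13404 tested genes, it called 1347 higher in Atf4WT and 2007 in Atf4AKO. Without the covariate, 2273 and 1988 were called higher.

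**Figure D5:**
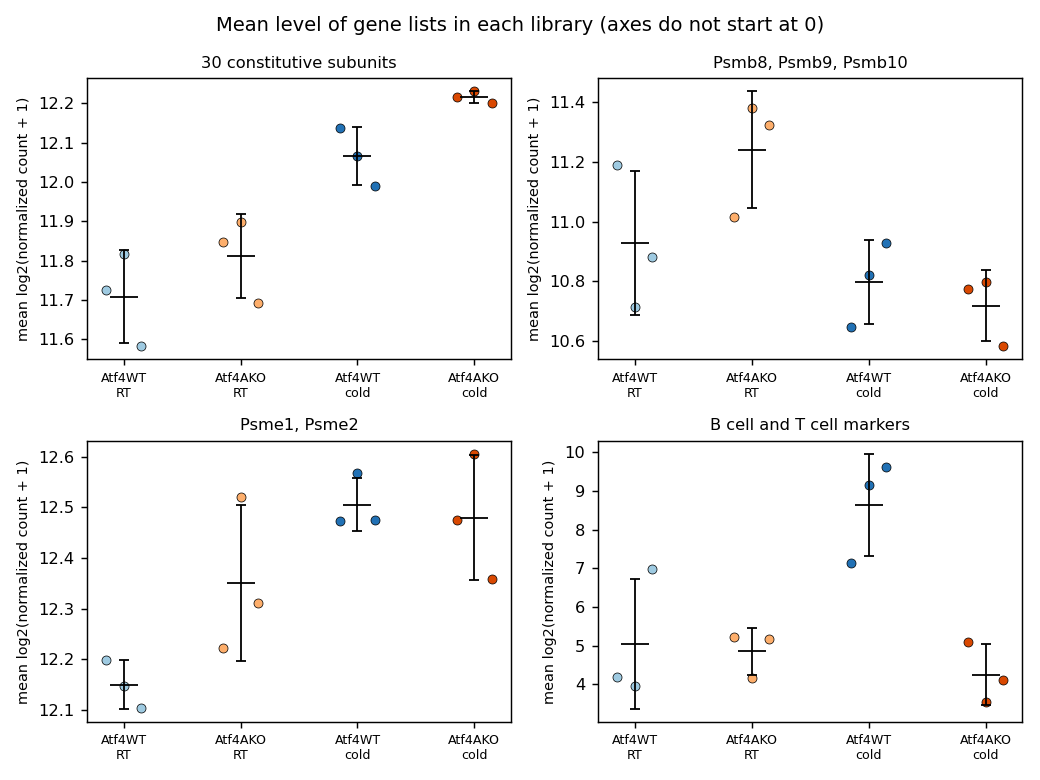
Mean log2(normalized count + 1) of the 30 tested constitutive subunits, of Psmb8, Psmb9 and Psmb10, of Psme1 and Psme2, and of 30 B cell and T cell markers (vertical axes, not from 0) in each library, by group. Points are libraries, and bars are the mean ± SD of 3. The constitutive mean is higher in all cold-exposed than in all RT libraries, while the lymphocyte mean is highest in cold-exposed Atf4WT (7.15 to 9.62), followed by Atf4WT RT replicate 2 (6.98).

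Between genotypes limma called no member. After cold exposure, it called 0 of 47 members in Atf4AKO against Atf4WT at an adjusted p-value under 0.05 (0.0298% of all tested genes were called). Under an unadjusted 0.05 were 6 members (12.8%), against 11.7% of all tested genes. edgeR called 0 members and 3 genes in all. DESeq2 called 1 of 48 members, *Psma5*, and 591 genes in all. With limma, no member passed a fold change over 1.5 with an unadjusted p-value under 0.05, which 6.4% of all tested genes did. The differences were small and of one sign in the constitutive subunits. All 30 had a log2FC above 0 (59.3% of all tested genes), with a median of 0.13 against 0.05 over all tested genes. In 18 of the 30, the 3 Atf4AKO libraries lay above the 3 Atf4WT libraries, against 8.68% of all tested genes. These genes share the same libraries and vary together between them, so the count does not rest on independent measurements. The mean log2 level of the 30 was 12.14, 12.07 and 11.99 in cold-exposed Atf4WT and 12.22, 12.23 and 12.20 in cold-exposed Atf4AKO.

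The share of members with an unadjusted p-value under 0.05 was thus close to that of all tested genes, and they are named as a description. They were *Psmc6*, *Psmd11*, *Psma1*, *Psma3*, *Psma5* and *Psmb7*. Their log2FC were 0.22, 0.18, 0.23, 0.18, 0.19 and 0.24 in this order, with adjusted p-values of 0.205 to 0.342. *Psma5* had normalized counts of 2458, 2541 and 2401 in the 3 Atf4WT libraries at RT and 3197, 2879 and 3046 after cold exposure. In Atf4AKO, *Psma5* had 2629.7, 2657 and 2607 at RT and 3461, 3366 and 3586 after cold exposure. *Psmb5* differed by 0.17 (95% CI −0.07 to 0.41) and *Nfe2l1* by 0.07 (95% CI −0.19 to 0.32), or by −0.28 with the lymphocyte score as a covariate. Of the immunoproteasome genes, *Psmb9* differed by −0.13 (95% CI −0.47 to 0.22), *Psmb8* by −0.08 (95% CI −0.44 to 0.29) and *Psmb10* by −0.03 (95% CI −0.28 to 0.22). The lymphocyte score did not overlap between the cold-exposed groups (7.15 to 9.62 in Atf4WT, 3.53 to 5.09 in Atf4AKO). A fit with this score as a covariate therefore cannot cleanly separate the score from the genotype. In that fit the median of the 30 subunits was −0.11, on the other side of 0. Without both muscle-rich libraries it was 0.19.

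At RT, limma called 0 of 47 members (0.00746% of all tested genes), with 3 under an unadjusted 0.05 (6.38%, against 1.53% of all tested genes). edgeR and DESeq2 called no member, and 1 and 4 genes in all. The median of the 30 constitutive subunits was 0.11 against 0.01 over all tested genes, and 29 of 30 had a log2FC above 0. Without both muscle-rich libraries the median was 0.05 and 23 of 30 were above 0. All 5 immunoproteasome genes were higher in Atf4AKO by value, with a median of 0.26. The 3 members under an unadjusted 0.05 were *Psmb8* (0.39 ± 0.17, SE), *Psmb10* (0.26 ± 0.11) and *Psme1* (0.22 ± 0.10). None of the 3 passed after adjustment.

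The difference of the cold responses, Atf4AKO minus Atf4WT, was called for 0 of 47 members with limma (0.0% of all tested genes), and 1 member, *Psme1*, had an unadjusted p-value under 0.05 (2.13%, against 6.92% of all tested genes). Neither edgeR nor DESeq2 called a member, and they called 0 and 128 genes in all. The median was 0.03 over the 30 constitutive subunits, the same as over all tested genes, and 19 of 30 were above 0. This median was −0.24 with the lymphocyte score as a covariate and 0.14 without both muscle-rich libraries. The largest differences in the subunits were those of *Psmd1*, at 0.23 (95% CI −0.14 to 0.59), and *Psmb7*, at 0.19 (95% CI −0.08 to 0.46). All 5 immunoproteasome genes had a value below 0, at −0.47 for *Psmb8*, −0.41 for *Psmb9*, −0.30 for *Psmb10*, −0.30 for *Psme1* and −0.16 for *Psme2*, and the smallest adjusted p-value among them was 0.718. The intervals of *Psmb8* (−0.98 to 0.05) and *Psmb9* (−0.89 to 0.08) include 0. The cold responses of these genes are thus not shown to differ between the genotypes. For *Nfe2l1* the difference was 0.11 (95% CI −0.25 to 0.47), or −0.22 with the covariate.

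Genes that work with the proteasome but lie outside the symbol rule were read from lists by role. Of the 2 subunit genes with other names, the ubiquitin receptor gene *Adrm1* rose in both genotypes (0.43 in Atf4WT, adjusted p = 0.00603, and 0.59 in Atf4AKO, adjusted p = 0.00156), and *Sem1* was not called. Of the 4 proteasome-bound ubiquitin enzymes, the deubiquitinase gene *Usp14* (0.26 and 0.43) and the ligase gene *Ube3c* (0.31 and 0.49) rose in both genotypes. Of the shuttle factors that bring ubiquitinated proteins to the proteasome, *Rad23b*, *Ubqln1* and *Ubqln4* rose in both genotypes, by 0.30, 0.26 and 0.57 in Atf4WT and 0.45, 0.38 and 0.58 in Atf4AKO. *Ubqln2* fell by 0.63 in Atf4WT and 0.58 in Atf4AKO on the log2 scale. The protease DDI2 also cleaves NFE2L1, and *Ddi2* rose by 0.86 in Atf4AKO (adjusted p = 0.00987), with 0.25 in Atf4WT (adjusted p = 0.366). Of the other 6 genes of NFE2L1 processing and its related factors, *Sel1l*, which serves export of the protein from the endoplasmic reticulum, fell by 0.30 in Atf4WT, and *Ngly1*, *Vcp*, *Syvn1*, *Nfe2l2* and *Nfe2l3* were not called.

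Of the genes that encode ubiquitin, *Rps27a* rose in Atf4WT (0.37) and was not called in Atf4AKO (0.09). The polyubiquitin gene *Ubb* fell by 0.43 in Atf4WT and 0.45 in Atf4AKO on the log2 scale. The ubiquitin-activating enzyme genes *Uba1* and *Uba6* were not called.

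The class I antigen presentation pathway uses peptides that the proteasome makes. Of its 8 listed genes, 3 fell in Atf4WT and 5 in Atf4AKO, none rose, and the medians were −0.26 and −0.49. Of all tested genes, 14.9% were called lower in Atf4WT and 11.0% in Atf4AKO. *Tapbp*, a peptide-loading factor, had −0.56 and −0.70, the trimming peptidase gene *Erap1* −0.50 and −0.54, and the chaperone gene *Pdia3* −0.32 and −0.51. *Calr* (−0.47) and the peptide transporter gene *Tap1* (−0.54) fell in Atf4AKO, and *B2m*, *Tap2* and *Tapbpl* were not called. *Tap1* shares 212 exonic bases with *Psmb9* on the opposite strand.

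Among the interferon and class I regulators reported here, *Irf8*, a factor of myeloid and B cells, rose in Atf4WT (1.23), and *Irf7* fell in Atf4WT (−0.59). *Irf1*, *Irf9*, *Nlrc5* and *Stat2* were not called in either genotype. Between genotypes limma called 0 of the 39 genes in these 8 lists at an adjusted p-value under 0.05. After cold exposure 9 of the 39 (23.1%) were under an unadjusted 0.05, against 11.7% of all tested genes. At RT 0 of the 39 were, against 1.53% of all tested genes.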

How the data were processed

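PolyA RNA of iWAT was sequenced in 12 libraries, and the authors filtered the reads (SOAPnuke), aligned them (STAR, mm10), assigned unique alignments to genes (featureCounts) and divided the counts by size factors of pyDESeq2. The tool versions and the strand setting are not given in the sources used here. The deposited values are thus a signal in normalized counts. Each library's smallest step gave the value of 1 read, and 100% of the values were whole multiples of it within 0.001 of a read. There were 25719476 to 29105147 reads per library, and intervals across 3 libraries are limited by their number.

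Groups were taken from the labels. limma 3.58.1 in R 4.3.3, with an intensity trend, fitted log2(normalized count + 1) to 4 group means for 13404 genes, those averaging 10 normalized counts or more, and p-values were adjusted by Benjamini-Hochberg over all of them. A p-value here sets a difference of group means against the spread between biological replicates. That spread is pooled over the 4 groups of 3 and moderated across genes. edgeR 4.0.16 and DESeq2 1.42.0 on the recovered reads were alternatives, as were other scalings, pseudocounts and filters, a replicate block, a lymphocyte covariate and each library left out. Positions are those of mm10 and promoters those of RefSeq on GRCm38.p6. Values were named for Nfe2l1, Pomp, the 5 immunoproteasome genes, Psmb5, Psmb6, Psmb7, and the largest and smallest Atf4WT cold response in each role, and Psma5 was added after its values were seen. The members and lists were chosen with earlier results of these data known. Some genes of the pathway lists are not reported here.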

Additional observations from a re-analysis of the deposited data

How the results depend on the processing

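Under 24 alternatives, the median log2FC of the constitutive subunits in cold stayed above 0 in both genotypes. The lymphocyte covariate moved it to 0.53 in Atf4WT, to −0.11 between genotypes in cold and to −0.24 for the difference of the cold responses. That fit left 1 of 5 immunoproteasome genes called in Atf4WT. The lymphocyte score was higher in all cold-exposed Atf4WT libraries than in the others, so the fit cannot cleanly separate score and group. Leaving out both muscle-rich libraries, chosen after seeing the data, gave a median of 0.24 and 10 of 30 called in Atf4WT, 0 of 5 immunoproteasome genes in Atf4WT, 1 of 5 in Atf4AKO, and 0.14 for the difference of the cold responses. The fit of only the groups compared called 1 of 5 immunoproteasome genes in Atf4AKO. DESeq2 called 1 subunit between genotypes in cold, and 591 genes in all. With 1 library left out, the immunoproteasome genes called ranged from 1 to 3 in Atf4WT and 1 to 2 in Atf4AKO, and their Atf4WT median from −0.056 to 0.23.

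*Nfe2l1*, uncalled throughout, changed sign with the covariate in Atf4WT cold against RT (0.26), between genotypes in cold (−0.28) and for the difference of the cold responses (−0.22). With 1 library left out it ranged from −0.083 to 0.045 in Atf4WT, from −0.0043 to 0.14 between genotypes in cold and from −0.14 to 0.039 at RT. The cause was not tested for any of these shifts. Of the single-gene values called with limma, 1095 kept direction and call under an alternative, 81 lost the call and 0 changed sign. Among these alternatives are fits without a library of the other genotype, which does not enter the group means compared. Others changed only the pseudocount or the filter. The tally thus includes fits that could change a call little. TMM and 75th percentile scaling moved the median of all genes by less than 0.1 on the log2 scale.

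The replicate block called 21 of 30 subunits in each genotype and 3 of 5 immunoproteasome genes in Atf4AKO. The share of all tested genes called in that fit is not given here. Deviations of libraries with the same number had correlations of −0.19 to 0.39, with 9 of 18 above 0.1. Those of libraries with different numbers had −0.47 to 0.31, with 9 of 36 above 0.1. The labels do not say that the numbers pair the libraries, and the main fit left them unpaired. Whether libraries with the same number belong together was not tested.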
